A study of Mus musculus with 8 samples.

Results

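The 9 genes described here encode the TCF/LEF transcription factors of T cells (Tcf7 and Lef1), the coactivator beta-catenin (Ctnnb1) and the complex that destroys it (Axin1, Axin2, Apc and Gsk3b), and the Groucho corepressors Tle3 and Tle4. They were taken by symbol from the 16418 genes of the deposited normalized table, which held each of them once, and all 9 passed the filter on low counts that left 11772 genes to test. RNA-seq of poly(A) RNA compared naive CD4 T cells, gated from lymph node and spleen by markers that included CD3+CD4+CD25- and low or absent CD44, in Satb1fl/fl x CD4-CreERT2wt/+ mice. Mice given tamoxifen supplied the 4 KO samples, which are Sample_2907_KO, Sample_2908_KO, Sample_2909_KO and Sample_2910_KO. Mice left untreated supplied the 4 WT samples, which are Sample_2911_WT, Sample_2913_WT, Sample_2914_WT and Sample_2915_WT. WT names the lack of treatment here, since both groups carry the floxed Satb1 alleles and the Cre. CD4-CreERT2 is a Cre recombinase that tamoxifen activates in cells that use CD4 regulatory sequences, and the agent and the intended deletion cannot be told apart in this design.

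Without a Wnt signal, a complex built on the Axin and APC scaffolds lets the kinase GSK3 mark beta-catenin for degradation, and TCF/LEF proteins sit on DNA with Groucho/TLE corepressors. When Wnt binds its receptors the complex is held off, beta-catenin accumulates, and it joins TCF/LEF factors to activate targets such as Axin2, which feeds back as a further scaffold. In T cells TCF-1, the product of Tcf7, and LEF-1 are needed for thymic development and mark naive and memory-forming cells, where they also act without beta-catenin. TCF-1 is made in long forms, which bind beta-catenin through their N-terminus, and short forms, which lack that part.

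Depth ran from 7544075 to 9253620 counted reads in the KO libraries and from 5227758 to 21998174 in the WT libraries. Satb1, the targeted gene, was at 839.6 to 1032 CPM (counts per 1000000 reads, TMM-scaled) in KO and 987.2 to 1083 CPM in WT cells, at a log2 fold change of -0.18 with SE 0.059, short of the threshold (edgeR adjusted p = 0.0582). It passed under 4 of 18 alternatives, among them leaving out Sample_2908_KO. Naive CD4 T cell markers were abundant in every sample, with a summed level of 7021 to 7490 CPM in KO cells and 6540 to 6824 CPM in WT cells, and among them Il7r rose while Cd4 and Ccr7 fell. Of the B cell markers Ms4a1 had 3 reads and Pax5 1 read in pooled KO and both had 0 in pooled WT, although Ighm stood at 352.8 to 406.3 CPM in KO cells and 440.2 to 476.2 CPM in WT cells. Low but present were also Cd79a, with 84 reads in pooled KO and 106 in pooled WT, and Cd79b, with 49 and 37. Myeloid markers summed to 14.9 to 23.2 CPM in KO cells and 10.2 to 39.6 CPM in WT cells. Of the 2 CD8 T cell markers, Cd8a held 10 KO reads and 18 WT reads, and Cd8b1 413 KO reads and 725 WT reads. Cd8b1 averaged 12.1 CPM in KO cells and 16.1 CPM in WT cells. NK cell markers summed to 14.5 to 17.0 CPM in KO cells and 19.5 to 25.3 CPM in WT cells, nearly all of it Klrd1, while Ncr1 and Klrb1c had 3 to 5 reads in each group. Platelet and erythroid markers reached 0.865 CPM at most, and of the stromal and endothelial markers Pecam1, which T cells also use, made up nearly the whole sum of 279.5 to 292.1 CPM in KO cells and 287.5 to 291.5 CPM in WT cells. In bulk RNA, fewer cells of a type and less RNA per cell cannot be told apart.

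Of the 9 genes, Tcf7 fell and Axin2 rose in KO, and the other 7 did not pass the test. Those counts are to be read against a background of 6.39% of all 11772 tested genes called changed (3.98% higher and 2.41% lower in KO). The KO and WT samples did not overlap for 1 gene that was lower, Tcf7, and 1 that was higher, Axin2, where 11.1% of tested genes had no overlap (6.23% higher and 4.86% lower in KO). The median log2 fold change of the 9 genes was -0.0044, against -0.00047 for all tested genes.

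**Figure D1:**
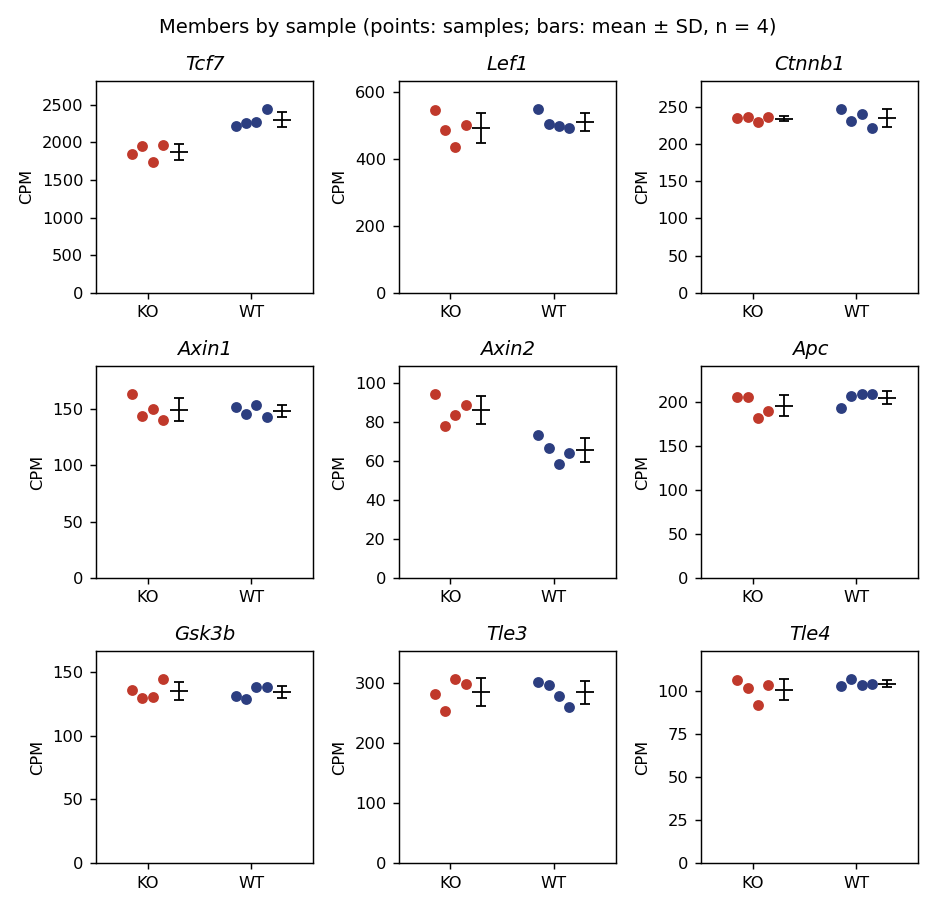
CPM (TMM-scaled counts per 1000000 reads) of the 9 genes in each sample, on axes that start at 0, with KO left and WT right. Points are samples and bars the mean ± SD (n = 4). The KO points lie below every WT point for Tcf7 (KO 1738 to 1966 CPM, WT 2224 to 2450 CPM) and above every WT point for Axin2 (KO 77.8 to 94.6 CPM, WT 58.6 to 73.5 CPM), and the groups overlap for the other 7 genes.

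The 2 genes that changed lie apart on mouse chromosome 11, Tcf7 at 52252371 to 52283014 on the minus strand and Axin2 at 108920349 to 108950783 on the plus strand (GENCODE M21, GRCm38). The 250 bases upstream of the GENCODE M21 start of each are shown because these are the members that moved, and because the Tcf7 window bears on what its read count covers. The Tcf7 stretch is chr11:52283015-52283264, minus strand, and the Axin2 stretch chr11:108920099-108920348, plus strand (RefSeq, GRCm38.p6, 5′ to 3′). Capitals mark the only ATG of the Tcf7 window.
Tcf7: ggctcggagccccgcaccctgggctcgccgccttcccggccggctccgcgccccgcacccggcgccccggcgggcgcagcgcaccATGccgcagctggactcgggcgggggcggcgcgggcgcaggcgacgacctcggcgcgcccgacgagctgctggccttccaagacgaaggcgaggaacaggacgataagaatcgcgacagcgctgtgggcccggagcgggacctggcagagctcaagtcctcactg
Axin2: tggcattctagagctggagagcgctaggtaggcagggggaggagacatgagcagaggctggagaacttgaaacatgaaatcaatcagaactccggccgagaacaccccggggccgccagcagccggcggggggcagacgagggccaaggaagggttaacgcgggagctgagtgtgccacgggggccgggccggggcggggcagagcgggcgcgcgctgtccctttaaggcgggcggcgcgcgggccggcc
The Tcf7 ATG stands 165 bases before the GENCODE M21 start, at position 52283179, and opens a run of 55 whole codons, the ATG included, without a stop up to that start. RefSeq extends Tcf7 to 52283383, 369 bases further than GENCODE M21, and begins Axin2 at 108917828, 2521 bases earlier, so both stretches lie inside the gene in RefSeq and upstream of it in GENCODE M21. At the 3′ end RefSeq carries Tcf7 on to 52246527, 5844 bases further than GENCODE M21. The Tcf7 levels per length below use the merged exon length of GENCODE M21, 2625 bases. The annotation release behind the deposited counts is not given in the sources used here. Whether reads from the Tcf7 stretch or from that 3′ extension were counted is not known. The 2 coding transcripts that GENCODE M21 lists for Tcf7 both begin at or downstream of 52283014, and the counts are summed per gene, so long and short TCF-1 forms are not separated in any value below.

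The TCF/LEF core motifs CTTTGAT and CTTTGAA were searched on both strands of the RefSeq promoter windows used here, which run from 250 bases before to 50 after a start. These covered 13 starts of 7 of the 9 genes, not including the outermost RefSeq ends of Tcf7 and Axin2, and 0 of the 13 windows held either motif. Of all 32851 windows 8.65% held at least 1 of them. The 13 windows had a GC content of 43.7% to 76.3%, where the median of all windows was 52.7%. The absence of these letters says nothing of TCF binding elsewhere.

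Tcf7, which encodes TCF-1, was the most abundant of the 9 genes and the only TCF/LEF gene called. It stood at 1851, 1949, 1738 and 1966 CPM in the KO samples, against 2224, 2260, 2273 and 2450 CPM in the WT samples. Every KO sample was below every WT sample. Expression averaged 1876 ± 105.0 CPM in KO cells and 2302 ± 100.8 CPM in WT cells (SD, n = 4 each). Tcf7 thus fell by 18.5%, a log2 fold change of -0.29 (SE 0.053, 95% interval -0.40 to -0.19, edgeR adjusted p = 0.000291). The exact permutation p, 2-sided over 70 relabellings, was 0.0286, the smallest this design allows. The fall was called under all 18 alternatives, at log2 fold changes of -0.33 to -0.26.

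Lef1, which encodes LEF-1, did not pass the test. It stood at 543.9, 483.7, 435.0 and 499.1 CPM in KO, against 548.9, 502.5, 497.2 and 491.4 CPM in WT cells, and the groups overlapped. Its log2 fold change was -0.06 (95% interval -0.18 to 0.07, edgeR adjusted p = 0.698). Within each sample the Tcf7 to Lef1 ratio of CPM was 3.40 to 4.03 in KO and 4.05 to 4.98 in WT. The log2 ratio averaged 1.94 ± 0.115 in KO and 2.17 ± 0.123 in WT (SD, n = 4 each), a difference of -0.24 (exact 2-sided permutation p = 0.0286, 0.0429 adjusted over the 3 ratios tested). The lowest KO ratio belonged to Sample_2907_KO, and without that sample the difference was -0.18. With 7 samples the exact permutation test cannot go below p = 0.0571. With all libraries thinned to the smallest, the difference was -0.23 and missed the threshold (exact permutation p = 0.0857).

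Per exon length Tcf7 made up 92.7% ± 0.549 of the transcripts of the 4 TCF/LEF genes in KO and 93.7% ± 0.486 in WT (SD, n = 4 each), and Lef1 nearly all of the rest. These shares rest on merged exon length. With the longest coding transcript as length, the mean over all samples was 2364 TPM (defined below) for Tcf7, against 3066 TPM with merged exons. For Lef1 it was 401.5 TPM, against 219.2 TPM, so the Lef1 share is larger by that length. The related genes were scarce. Tcf7l1 averaged 1.61 CPM in KO cells and 2.91 CPM in WT cells (log2 fold change -0.87, edgeR adjusted p = 0.140), and Tcf7l2 had 14 reads in pooled KO and 21 in pooled WT, too few to test. Noncoding genes share the Tcf7 and Lef1 loci. In Tcf7 these are A630014C17Rik on the opposite strand (14.0 CPM in KO cells and 17.6 CPM in WT cells, adjusted p = 0.147) and Gm26551 on the same strand (18.4 CPM in KO cells and 20.3 CPM in WT cells, adjusted p = 0.626), and neither shares an exonic base with Tcf7. In Lef1, Gm43352 shares 1208 exonic bases on the opposite strand and held 353 reads over all samples, against 39082 for Lef1. The libraries did not mark strand, so reads in the shared bases cannot be assigned to a strand.

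Regulatory T cell markers moved with the groups in which Tcf7 fell. Their summed level over 5 genes was 109.9 to 192.3 CPM in KO cells and 52.5 to 59.9 CPM in WT cells, and without Foxp3 it was 54.8 to 79.5 CPM in KO cells and 44.4 to 50.1 CPM in WT cells. Of the 5 genes, Foxp3 and Tnfrsf18 rose and 0 fell. The part of these markers in the Tcf7 result was not tested.

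By the measure of likeness used, the root mean square difference between log2 CPM profiles centred on their means over the 8 samples, the 3 genes closest to Tcf7 among 8928 candidates were Tmem245 (0.044), Cd2ap, an adaptor of the T cell synapse (0.048), and Ccni, a cyclin family member (0.053). All 3 were lower in KO, at log2 fold changes of -0.25, -0.22 and -0.27. Because likeness was measured over the same KO and WT samples, a change near that of Tcf7 or Lef1 follows from the choice and is no separate result. For Lef1 the closest were Zfp869 and Pdlim5 (both 0.040) and Ccdc50 (0.041), none of which passed the test (adjusted p = 0.771 or above). Among the genes closest to Tcf7, Cd2ap lost its call without Sample_2909_KO or Sample_2915_WT (adjusted p up to 0.107), and Ccni lost it without Sample_2911_WT and Sample_2914_WT together.

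Ctnnb1, which encodes beta-catenin, had the steadiest level of the 9 genes in KO. It stood at 234.6, 236.0, 230.2 and 236.8 CPM in KO, against 247.8, 231.4, 240.6 and 221.2 CPM in WT cells. The KO samples fell inside the WT range. The log2 fold change was -0.0044 (95% interval -0.11 to 0.11, edgeR adjusted p = 0.981). Ulk4, on the opposite strand, shares 759 exonic bases with Ctnnb1 but held 21 reads over all samples, against 18493 for Ctnnb1. These are transcript levels, and beta-catenin is controlled chiefly through its protein.

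Axin2, the scaffold that is itself a standard Wnt target, was the only gene of the destruction complex core to change. It stood at 94.6, 77.8, 83.6 and 89.1 CPM in the KO samples, against 73.5, 66.9, 58.6 and 64.0 CPM in the WT samples. Every KO sample was above every WT sample, with Sample_2908_KO (77.8 CPM) and Sample_2911_WT (73.5 CPM) the closest pair. The means were 86.3 ± 7.21 CPM in KO cells and 65.7 ± 6.22 CPM in WT cells (SD, n = 4 each), a rise of 1.33-fold (on the log2 scale 0.41 with SE 0.078 and 95% interval 0.25 to 0.57, edgeR adjusted p = 0.00071; exact 2-sided permutation p = 0.0286). The rise was called under all 18 alternatives, at log2 fold changes of 0.34 to 0.46. An antisense gene, Gm11670, shares 209 exonic bases with Axin2 but held 28 reads over all samples, against 5730 for Axin2.

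Axin1, the constitutive scaffold, stood at 163.5, 143.6, 149.7 and 140.3 CPM in KO, against 152.1, 145.4, 153.9 and 142.6 CPM in WT cells, and the KO range held the whole WT range. Its log2 fold change was 0.0072 (95% interval -0.12 to 0.13, adjusted p = 0.973). Axin2 over Axin1, taken as a ratio of CPM within each sample, was 0.542 to 0.635 in KO and 0.381 to 0.484 in WT. The log2 ratio differed by 0.39 between KO and WT (exact 2-sided permutation p = 0.0286, 0.0429 adjusted over the 3 ratios). With thinned libraries the exact permutation p of Axin2/Axin1 was again 0.0286. The adjusted value became 0.0857 because Tcf7/Lef1 no longer shared that p in the adjustment over the 3 ratios. At full depth the paralogs thus differed in their response by more than the spread between samples.

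Apc, the large tumour suppressor scaffold, ran from 182.2 to 206.1 CPM in KO cells and from 194.0 to 209.6 CPM in WT cells (log2 fold change -0.07, adjusted p = 0.600). Gsk3b, the kinase, ran from 129.6 to 144.6 CPM in KO cells and from 129.2 to 138.3 CPM in WT cells (0.0043, adjusted p = 0.982). For both genes the ranges of the groups overlapped.

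The corepressors did not pass the test. Tle3 ran from 253.2 to 306.7 CPM in KO cells and from 260.2 to 301.9 CPM in WT cells (log2 fold change 0.0052, adjusted p = 0.981). Tle4 ran from 91.9 to 106.2 CPM in KO cells and from 102.7 to 107.1 CPM in WT cells (-0.05, adjusted p = 0.761). The log2 ratio of Tle3 to Tle4 averaged 1.50 ± 0.185 in KO and 1.44 ± 0.098 in WT (SD, n = 4 each; exact 2-sided permutation p = 0.714). Across the 7 members that were not called, the 95% intervals together spanned a KO to WT ratio of 0.880 (Apc) to 1.10 (Tle3). Changes inside the interval of a gene are not excluded for that gene, and the span is not a limit of detection.

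**Figure D2:**
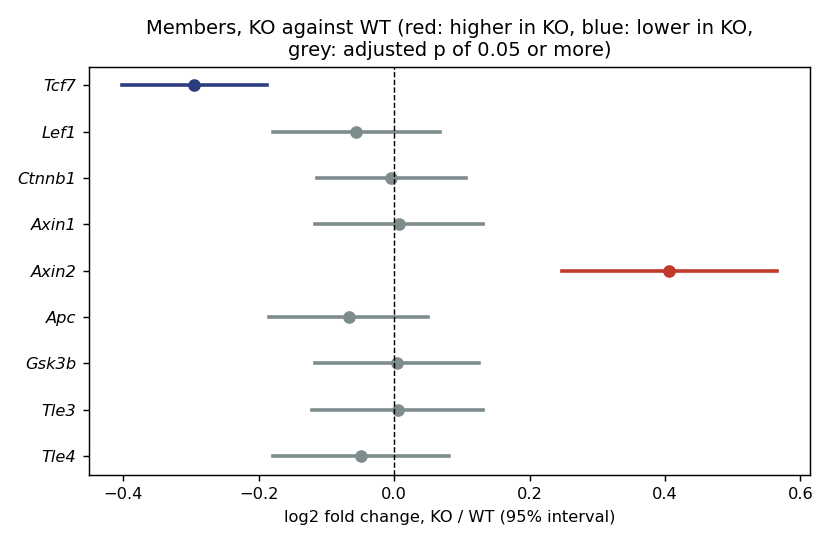
Log2 fold change of KO over WT for the 9 genes (points) with 95% intervals (lines) from the edgeR fit. Tcf7 lies wholly below 0 (-0.40 to -0.19) and Axin2 wholly above it (0.25 to 0.57), while the intervals of the other 7 cross 0.

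**Figure D3:**
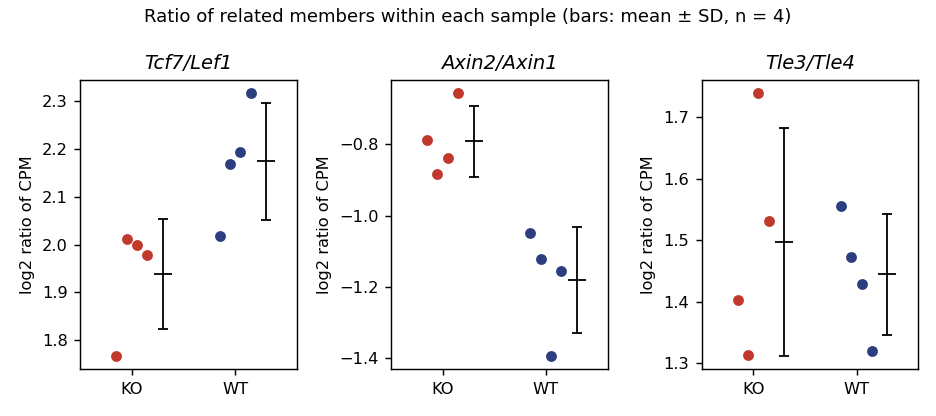
Log2 ratio of CPM of 2 related genes within each sample, KO left and WT right, with mean ± SD bars (n = 4); the axes do not start at 0. Tcf7/Lef1 is lower in every KO sample than in every WT sample, Axin2/Axin1 is higher in every KO sample, and Tle3/Tle4 overlaps.

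TPM (reads per kilobase of merged exon length, scaled to a total of 1000000) put the 9 genes in order. Tcf7 was at 2753 ± 170.1 TPM in KO and 3379 ± 169.4 TPM in WT (SD, n = 4 each), rank 31 in KO and rank 26 in WT among the tested genes. Lef1 followed at 214.9 ± 19.98 TPM in KO and 223.6 ± 10.9 TPM in WT. Ctnnb1 (173.8 TPM in KO and 174.7 TPM in WT) and Axin1 (150.1 TPM in KO and 149.6 TPM in WT) overlapped in range. Tle3 (94.1 TPM in KO and 94.0 TPM in WT) came next and overlapped with none.

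Below it, Tle4 had 68.1 TPM in KO and 70.5 TPM in WT, and Gsk3b 52.9 TPM in KO and 52.7 TPM in WT. Apc had 46.9 TPM in KO and 49.1 TPM in WT. The range of Tle4 over all samples overlapped that of Axin2 and lay above those of Gsk3b and Apc, while Axin2, Gsk3b and Apc overlapped one another. Axin2 was the member whose place in the order shifted most between samples, and the shift followed the groups. It was seventh in every KO sample and further down, as far as ninth, in every WT sample. Axin2 averaged 60.3 ± 4.82 TPM in KO and 45.9 ± 3.42 TPM in WT. Levels between genes depend on the length used. With the longest coding transcript in place of merged exons, an alternative chosen after seeing the data, mean levels over all samples became 2364 TPM for Tcf7 and 401.5 TPM for Lef1, and Tle3 (152.7 TPM) passed Axin1 (110.2 TPM).

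**Figure D4:**
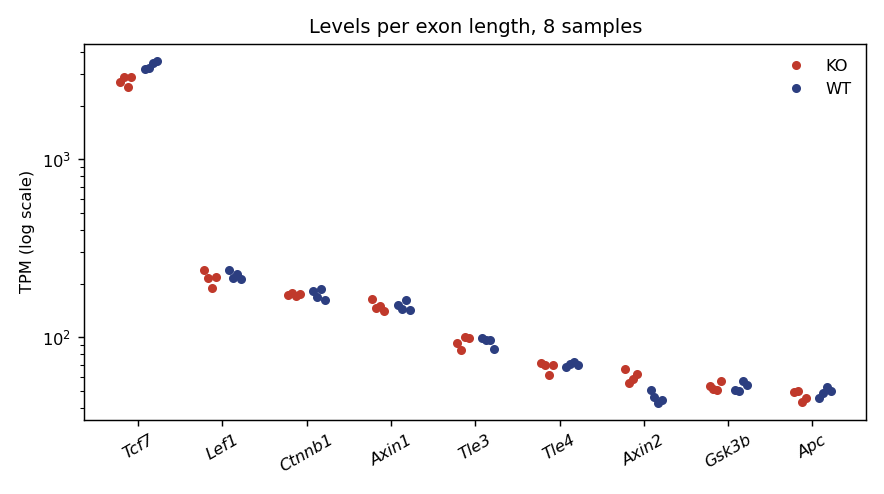
TPM of the 9 genes in each sample on a log scale, KO left of WT within each gene, ordered by mean level. Tcf7 lies between 2531 and 3563 TPM in all samples, above every other gene, and Axin2, Gsk3b and Apc overlap at the low end.

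The wider pathway was read from 8 lists of 133 genes, of which 71 had enough reads to test. Of the 71, 5 were higher and 4 lower in KO, a share of 12.7% against 6.39% of all tested genes, and their median log2 fold change was 0.0025. The lists were chosen with earlier results of these data known. A share above that of all tested genes, here or in a list below, may therefore come from the choice and was not tested. Beside Tcf7 and Axin2 these were Wls, Amer1, Tnks2 and Ccnd2, which rose, and Kremen1, Bcl9 and Cd44, which fell. Most Wnt ligands were silent or nearly so: of 21 genes for ligands and their secretion, 12 had 0 reads in all samples, and 3 were tested. Pooled reads set a floor, the level of 3 reads, of 0.0876 CPM in KO cells and 0.0677 CPM in WT cells.

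Among ligand and secretion genes Wls, the carrier that brings Wnt proteins to the cell surface, rose 1.57-fold. It was at 26.4 ± 2.65 CPM in KO cells and 17.2 ± 2.34 CPM in WT cells (SD, n = 4 each; log2 fold change 0.65, SE 0.120, edgeR adjusted p = 0.000499), with no overlap between the groups, and was called under all 18 alternatives. The ligand Wnt2b averaged 2.02 CPM in KO cells and 1.06 CPM in WT cells (adjusted p = 0.150). Of 20 receptor and receptor turnover genes, 5 were tested and 0 called, with 1 below 0.05 before adjustment (Rnf43, which encodes a ligase that removes Frizzled receptors, log2 fold change -0.44) and 0 called with DESeq2. The coreceptor gene Lrp6 was the most abundant of them per length, at 150.2 CPM in KO cells and 154.2 CPM in WT cells. Of the 10 Frizzled genes, Fzd5 alone had enough reads to test, with 7.19 CPM in KO cells and 6.19 CPM in WT cells.

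Among inhibitors Kremen1, a receptor for Dickkopf proteins, fell (95.8 ± 6.50 CPM in KO cells and 112.4 ± 4.92 CPM in WT cells, SD, n = 4 each; log2 fold change -0.24, edgeR adjusted p = 0.0215). Of 30 destruction complex genes and regulators, 27 were tested, 3 were higher and 0 lower. This was 11.1% of the tested, against 6.39% of all tested genes called (3.98% higher). Beside Axin2 they were Amer1, a membrane partner of APC (log2 fold change 0.33, adjusted p = 0.0101), and Tnks2, a tankyrase that marks Axin for degradation (0.20, adjusted p = 0.018). The median of this list was 0.0072. Skp1a, an adaptor of the ubiquitin ligase that takes up beta-catenin, was the most abundant of them per length and was not called (log2 fold change 0.14, adjusted p = 0.237). Nor were Gsk3a, the second GSK3 kinase (0.13, adjusted p = 0.368), and Csnk1a1, the priming kinase of beta-catenin (-0.08, adjusted p = 0.432). Kremen1 lost its call with thinned libraries, without the pair Sample_2911_WT and Sample_2914_WT (adjusted p = 0.125), and without Sample_2907_KO (0.110), Sample_2914_WT (0.0838) or Sample_2915_WT (0.0848). Tnks2 lost it without Sample_2907_KO (0.0865), Sample_2913_WT (0.114) or Sample_2915_WT (0.0584), and Amer1 lost it without Sample_2913_WT (0.0514).

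Of 18 tested nuclear partners of beta-catenin 1 was called, a share of 5.56%, near the 6.39% of all tested genes. This was Bcl9, an adaptor that links beta-catenin to PYGO proteins, which fell (77.5 ± 6.20 CPM in KO cells and 93.7 ± 8.87 CPM in WT cells, SD, n = 4 each; log2 fold change -0.28, adjusted p = 0.0175) with overlapping groups. Med12, a Mediator subunit, was the most abundant of these partners per length (log2 fold change 0.07, adjusted p = 0.527). For the Bcl9 paralog Bcl9l the log2 fold change was 0.16 (adjusted p = 0.300). Of the other Groucho/TLE genes, Aes, a short form of the family, was the most abundant per length, at a log2 fold change of -0.04 (adjusted p = 0.769), and 0 of 5 tested TLE genes were called with edgeR, 0 had an unadjusted p under 0.05, and 0 were called with DESeq2. Bcl9 lost its call with limma-trend (adjusted p = 0.0513) and without Sample_2907_KO (0.106), Sample_2913_WT (0.0514), Sample_2914_WT (0.0641) or Sample_2915_WT (0.0865).

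Common Wnt/beta-catenin target genes moved in both directions. Of 25 listed, 12 were tested, and 2 rose and 2 fell (33.3% called, against 6.39% of all tested genes), with a list median of -0.22. Beside Axin2, Ccnd2, which encodes cyclin D2, rose 1.49-fold to 856.9 ± 58.7 CPM in KO, against 574.2 ± 32.4 CPM in WT cells (SD, n = 4 each; edgeR adjusted p = 1.58e-08), and was called under all 18 alternatives. Tcf7 and Cd44, a marker used in the sort, fell, Cd44 at a log2 fold change of -0.34 (adjusted p = 0.0262). Myc, at 69.9 CPM in KO cells and 77.9 CPM in WT cells, did not pass the test (-0.15, adjusted p = 0.296). The targets Lgr5, Sp5 and Dkk1 had 0 reads. Cd44 lost its call without Sample_2909_KO (adjusted p = 0.0956), Sample_2910_KO (0.0538), Sample_2914_WT (0.0604) or Sample_2915_WT (0.122), without the pair Sample_2911_WT and Sample_2914_WT (0.128), and with thinned libraries (0.0878).

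**Figure D5:**
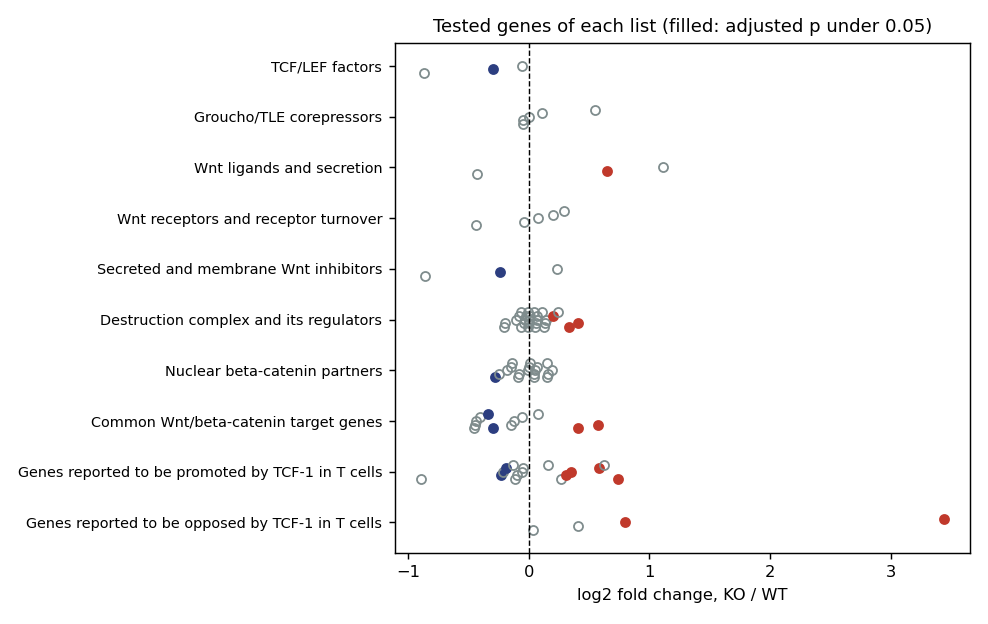
Log2 fold change of KO over WT for each tested gene of the pathway lists and of 2 lists of genes linked to TCF-1 in T cells; filled points passed an adjusted p under 0.05 (red higher, blue lower in KO). Most points lie near 0, and the point at 3.45 is Foxp3.

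Genes reported in T cells to be promoted by TCF-1 did not move one way. All 16 were tested, and 4 were higher and 2 lower in KO (37.5% called, against 6.39% of all tested genes), with a median log2 fold change of -0.05. Slamf6, a surface receptor often used to mark TCF-1-positive T cells, rose by 0.58 on the log2 scale, with 466.9 ± 39.3 CPM in KO cells and 310.6 ± 28.4 CPM in WT cells (SD, n = 4 each; edgeR adjusted p = 5.59e-07). Il7r, the IL-7 receptor chain, and Gata3, the Th2 factor, also rose, at log2 fold changes of 0.74 and 0.35. Bach2, a repressor that maintains naive cells, and the homing receptor gene Ccr7 fell, at -0.23 and -0.19. Of the genes not called, Id3 and Il6ra came nearest to the threshold, both with positive log2 fold changes. These were 0.62 for Id3 (edgeR adjusted p = 0.0718), which DESeq2 called higher, and 0.16 for Il6ra (edgeR adjusted p = 0.0838). For Bcl11b, a T lineage factor, the log2 fold change was -0.10 (adjusted p = 0.383), and for Bcl6, the follicular helper factor, -0.22 (adjusted p = 0.372).

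Of 9 genes reported to be opposed by TCF-1, 4 were tested, and Id2 and Foxp3 rose (50% called, where 3.98% of all tested genes were higher in KO). Id2, an inhibitor of E proteins, was at 69.6 ± 3.13 CPM in KO cells and 40.2 ± 2.33 CPM in WT cells (SD, n = 4 each; log2 fold change 0.80, adjusted p = 1.4e-08). Prdm1, which encodes Blimp-1, was at 9.22 CPM in KO cells and 9.13 CPM in WT cells (adjusted p = 0.954), and Il2ra at 5.31 CPM in KO cells and 4.01 CPM in WT cells (adjusted p = 0.392). Il17a had 0 reads, Gzmb 3 reads in KO and 6 in WT, and Tbx21 10 in KO and 14 in WT. Il7r lost its call without Sample_2907_KO, Sample_2908_KO, Sample_2911_WT or Sample_2914_WT (adjusted p = 0.0556 to 0.0837), Ccr7 without Sample_2907_KO, Sample_2913_WT or Sample_2915_WT (0.0635 to 0.104), and Bach2 without Sample_2915_WT (0.0659). Without Sample_2911_WT and Sample_2914_WT together Gata3 (0.0549) and Il7r (0.206) lost it, and with thinned libraries Ccr7 (0.0521).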

How the data were processed

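Poly(A) RNA was read as single reads from an unstranded TruSeq library, per the labels' protocols. The submitters' processing notes list mm10 with CASAVA 1.8.2, FastQC, DESeq2 1.22.2 and R 3.5.3; the sources used here name no aligner, counter or annotation release. The authors deposited raw counts, whole numbers, of 53465 genes. The deposited normalized signal values are those counts over 1 size factor a sample, kept for the 16418 genes with at least 10 reads.

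KO was tested against WT with the robust quasi-likelihood F test of edgeR 4.0.16 (R 4.3.3), TMM normalization, filterByExpr filter, Benjamini-Hochberg adjusted p under 0.05 over all 11772 tested genes. SE is the size of the log2 fold change divided by the root of F, and intervals use its degrees of freedom. CPM values are TMM-scaled. The 3 within-sample ratios had exact permutation tests. Lengths and positions came from GENCODE M21, which held 99.8% of the IDs, and promoters from RefSeq (GRCm38.p6).

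Alternatives were DESeq2 1.42.0, limma-voom and limma-trend (limma 3.58.1, pseudocount 1), RLE or no scaling, no filter, 1 CPM in 4 samples, a non-robust fit, thinning to 5227758 reads, and leaving out samples. The count test was tested on simulated data. Named genes were the 9 members, Satb1, called list genes, the most abundant gene of a list and family genes. The nearest profiles (mean of at least 5 CPM) were named too. Wnt2b, Rnf43, Fzd5, Gsk3a, Csnk1a1, Bcl9l, Myc, Bcl11b, Bcl6, Id3, Il6ra, Prdm1, Il2ra, overlapping genes and low-count genes were added after their values were seen. Members and lists were chosen with earlier results of these data known. Separate animals are not stated in the labels, so p-values cover the spread among these samples, which may be technical. Floors cover counting error only. Protein sequences were not used here, and some genes that the rule takes are left out of the text.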

Additional observations from a re-analysis of the deposited data

Results flagged for a closer look

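A single sample stood far from the other 3 of its group in 5 of 92 groups of 4 samples checked, where chance flags about 1 in 20 groups. Apc was at 194.0 CPM in Sample_2911_WT and at 207.6 to 209.6 CPM in the other WT samples. Tle2, a low-level corepressor gene, was at 5.22 CPM in Sample_2910_KO against 3.05 to 3.29 CPM in the other KO samples, and at 4.33 CPM in Sample_2913_WT against 2.05 to 2.12 CPM in the other WT samples. Gm42449, a gene of uncertain type inside Lef1, was at 1.16 CPM in Sample_2911_WT and at 1.90 to 2.01 CPM in the other WT samples. The log2 Tcf7/Lef1 ratio was 1.77 in Sample_2907_KO and 1.98 to 2.01 in the other KO samples.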

How the results depend on the processing

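The count of called members was 2 under all 18 alternatives, and it was Tcf7 and Axin2 each time. The 9 genes kept their side of the threshold in each alternative, and no called gene named here changed sign. No scaling moved the median log2 fold change of all genes by more than 0.016 in size. The Wnt pathway lists gave 9 called genes, and 5 to 11 when a sample was left out in turn, 5 of them without Sample_2915_WT. Over all genes 752 were called, 562 to 836 when a sample was left out in turn, and 481 without Sample_2911_WT and Sample_2914_WT together. The log2 difference of the Tcf7/Lef1 ratio was -0.23 with thinned libraries (exact permutation p = 0.0857), -0.30 without that WT pair, and -0.29 to -0.18 with a sample left out in turn. That of Axin2/Axin1 was 0.41 with thinned libraries (exact permutation p = 0.0286, 0.0857 adjusted), 0.35 without the pair, and 0.32 to 0.43 with a sample left out. Leaving out samples puts the smallest possible p at 0.0571 for 7 samples and 0.133 for 6, so those settings cannot pass by construction. With thinning the exact permutation p of Axin2/Axin1 stayed at its smallest possible value. Its adjusted value rose because Tcf7/Lef1 no longer shared that p. At full depth the groups were only just apart in the log2 Tcf7/Lef1 ratio, at 2.011 in Sample_2908_KO and 2.018 in Sample_2911_WT. Why Tcf7/Lef1 moved with thinning was not tested. No paired analysis was possible because the groups share no sample numbers. Most Wnt ligands, most Frizzled genes and Tcf7l2 had no reads or too few to test.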

Other observations

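Several pathway genes had reads but too few to test, and are given as pooled reads over 34256257 counted reads in KO and 44311234 in WT. Fzd7, a Frizzled receptor gene, had 15 reads in KO and 3 in WT, while Fzd3 had 1 read in KO and 11 in WT. Apc2, the paralog of Apc, had 15 reads in KO and 40 in WT. Nkd2, a relative of the feedback inhibitor Nkd1, had 17 reads in KO and 28 in WT, and Ctnnbip1, an inhibitor of the beta-catenin to TCF contact, had 14 in KO and 10 in WT. Ccnd1, the D cyclin gene most often cited as a Wnt target, had 13 reads in KO and 18 in WT, where its relative Ccnd2 was among the tested genes. These genes were picked after their reads were seen.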
